A study of Mus musculus with 12 samples.

Results

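The genes described here are 10 genes of the MAPK pathway's negative feedback and target programme: Dusp4, Dusp6, Spry1, Spry2, Spry4, Spred1, Etv4, Etv5, Egr1 and the X-linked Klhl13. They were chosen by symbol from a count table of 24391 genes, and all 10 were found and passed the filter on low counts that left 17115 genes to be tested. RNA had been sequenced in mouse embryonic stem cells (mESC) of 4 hybrid female lines. All carry Rs26+/CreERT, a Cre that 4-hydroxytamoxifen (OHT) activates, and descend from a cross of C57BL/6J-129/SvJ with Mus musculus castaneus. Lines 5.3 and 5.16 were Rif1+/+ and are called WT (replicates 1 and 2). Lines 15.10 and 16.9 were Rif1F/F (replicates 3 and 4), called F/F before OHT and KO after it. The 12 libraries formed 6 groups of 2. The mESC groups had no OHT (pre-deletion, WT and F/F) or had OHT for 2 days (WT and KO). The other groups were embryoid bodies (EB) grown for 2 days (WT and KO), for which no days of OHT were recorded. WT cells therefore carried the same Cre, and the WT mESC of the OHT groups received OHT as well. Medium for the mESC held serum, leukemia inhibitory factor (LIF), the MEK inhibitor PD0325901 and the GSK3 inhibitor CHIR99021, per the labels' protocol, which does not describe the EB medium.

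Fibroblast growth factors and other ligands act on receptor tyrosine kinases, which signal through RAS, RAF and MEK to the kinases ERK1 and ERK2. ERK raises transcription of its own inhibitors: DUSP phosphatases remove the activating phosphates from MAP kinases, and Sprouty and SPRED proteins act upstream on RAS and RAF. ETV4, ETV5 and EGR1 are transcription factors whose genes are switched on by the pathway. KLHL13 is a substrate adaptor of the CUL3 ubiquitin ligase, and Klhl13 and Dusp9 are X-linked genes known to restrain MAPK signalling in female mESC. ERK activity lets mESC leave naive pluripotency, so MEK inhibition is used to hold them in it. Because the mESC medium held a MEK inhibitor, the levels of the feedback genes in mESC are levels under that inhibitor.

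Each difference between genotypes lies between 2 pairs of lines, each line giving 1 library per condition, so Rif1 and other differences between the lines cannot be told apart within a condition. The labels describe each library with a code whose first part was shared within a condition and differed between conditions, so condition and that code cannot be told apart. Rif1, the targeted gene, was at 662 to 702 CPM (counts scaled to library size) in KO mESC against 1455 to 1605 in WT mESC, and was already lower in F/F than in WT before OHT (1172 in both F/F libraries against 1537 and 1752). In EB it was at 789 and 845 CPM in KO against 1382 and 1342 in WT. The log2 fold change of Rif1 between genotypes moved from before OHT by -0.68 in mESC after OHT (edgeR adjusted p = 9.8e-04). In EB it moved by -0.25 (edgeR adjusted p = 0.0873), which is not a detectable change. From mESC after OHT to EB the genotype difference of Rif1 became smaller, by 0.43 (edgeR adjusted p = 0.00634). Rif1 was also higher in KO EB than in KO mESC, by 0.26 (edgeR adjusted p = 0.00669). Total counts per library ran from 28600870 to 64808897. Pluripotency markers summed to between 4311 and 6007 CPM in the 8 mESC libraries, and markers of the formative epiblast to between 1556 and 2942 CPM in the 4 EB libraries against 364 to 533 in mESC. Feeder fibroblast markers summed to at most 18.3 CPM and erythroid markers to at most 5.97 CPM in any library, with the globin genes Hba-a1 and Hbb-bt at 0 in all. WT mESC replicate 1 stood apart in the mitochondrial tRNA synthetase gene Lars2, with 0.869% of all counts against at most 0.140% elsewhere.

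Promoter windows from the RefSeq table of build GRCm38.p6 were searched for 6 of the 10 genes: Dusp6, Etv5, Klhl13, Spred1, Spry1 and Spry2. Each is the 300 bases from 250 before a transcription start site to 50 from it on, and these genes have 11 such windows. The 3 printed here are of Klhl13 and Spry2, the only genes searched with a window holding CCGGAA, and of Dusp6, a standard readout of ERK activity. Other Klhl13 windows are not printed. Levels of Klhl13 and Spry2 differed between genotypes in every condition. So did those of Dusp6, Spred1 and Etv5, whose windows had no CCGGAA. Spry1, whose window had none either, differed detectably in EB only. A link between these letters and the levels was not tested. Capitals mark CCGGAA or its reverse complement TTCCGG, the core bound by ETS factors such as ETV4 and ETV5.
Klhl13, chrX:23365033-23365332, minus strand: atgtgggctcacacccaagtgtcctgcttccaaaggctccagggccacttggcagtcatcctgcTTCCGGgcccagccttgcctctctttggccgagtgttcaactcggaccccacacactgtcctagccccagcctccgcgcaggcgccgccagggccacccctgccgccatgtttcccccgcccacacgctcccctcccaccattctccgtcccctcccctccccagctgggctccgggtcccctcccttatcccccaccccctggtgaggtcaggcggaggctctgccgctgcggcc
Spry2, chr14:105896770-105897069, minus strand: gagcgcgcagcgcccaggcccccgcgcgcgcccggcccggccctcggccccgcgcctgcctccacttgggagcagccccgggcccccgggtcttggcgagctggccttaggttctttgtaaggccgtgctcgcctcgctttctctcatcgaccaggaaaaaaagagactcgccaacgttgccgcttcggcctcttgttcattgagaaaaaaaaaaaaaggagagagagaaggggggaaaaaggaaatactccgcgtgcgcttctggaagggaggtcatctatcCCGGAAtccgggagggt
Dusp6, chr10:99262981-99263280, plus strand: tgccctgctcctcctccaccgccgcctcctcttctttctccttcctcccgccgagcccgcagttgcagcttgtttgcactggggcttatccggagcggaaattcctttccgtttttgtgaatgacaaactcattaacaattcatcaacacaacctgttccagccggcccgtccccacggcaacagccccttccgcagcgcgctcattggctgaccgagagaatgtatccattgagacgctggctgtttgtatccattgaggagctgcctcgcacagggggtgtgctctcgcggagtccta

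Searched on both strands, CCGGAA stood in 3 of the 11 windows, against 14.9% of all 32851 windows in the table. Its first base lay 34 bases after the start site in the Spry2 window, and at position -186 from the start site in the Klhl13 window shown. The remaining match lay in a second Klhl13 window that overlaps the one shown and covers the same site. The AP-1 letters TGANTCA stood in 1 further Klhl13 window, against 7.81% of all windows. TGAATGAA and TGAATGGA, bound by the repressor Capicua that ERK inactivates, stood in none of the 11 (1.30% and 1.21% of all windows), nor did the CRE letters TGACGTCA (1.79%) or the CArG box bound by serum response factor (1.63%). No match overlapped a match of another motif. Promoters of Dusp4, Spry4, Etv4 and Egr1 were not searched, so these counts say nothing about them. A match is a run of letters and not a measured binding site.

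Levels below are CPM with TMM-scaled library sizes, in the order of replicates, and tests are edgeR's quasi-likelihood F test with Benjamini-Hochberg adjustment over the 17115 genes, called at an adjusted p under 0.05. Log2 fold changes carry their standard error (SE), with n = 2 libraries per group. Dusp6, Spry4 and Etv4 were low in mESC and high in EB in both genotypes. Dusp4 was low in mESC after OHT and higher in EB in both genotypes. Before OHT, WT lines had 22.4 and 17.5 CPM of Dusp4, against 32.5 and 30.0 in WT EB. KO EB had less than WT EB of 7 of the 10 genes. In KO against WT EB, 7 of the 10 genes were lower and 2 higher, where 19.7% of all tested genes were lower and 20.7% higher. EB libraries of the genotypes did not overlap for 9 of the 10 genes, against 73.7% of all tested genes. In KO against WT mESC, 6 were lower and 2 higher (18.6% and 19.8% of all genes), and libraries did not overlap for 8 (69.0% of all genes). In F/F against WT mESC before OHT, 4 were lower and 2 higher (17.5% and 19.9% of all genes), and libraries did not overlap for 7 (67.2% of all genes). Thus several genotype differences stood between the lines before deletion. The median log2 fold change over the 10 genes was -0.48 in EB, -0.65 in mESC after OHT and -0.40 before OHT, against -0.02, -0.0033 and -0.0020 over all tested genes.

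**Figure D1:**
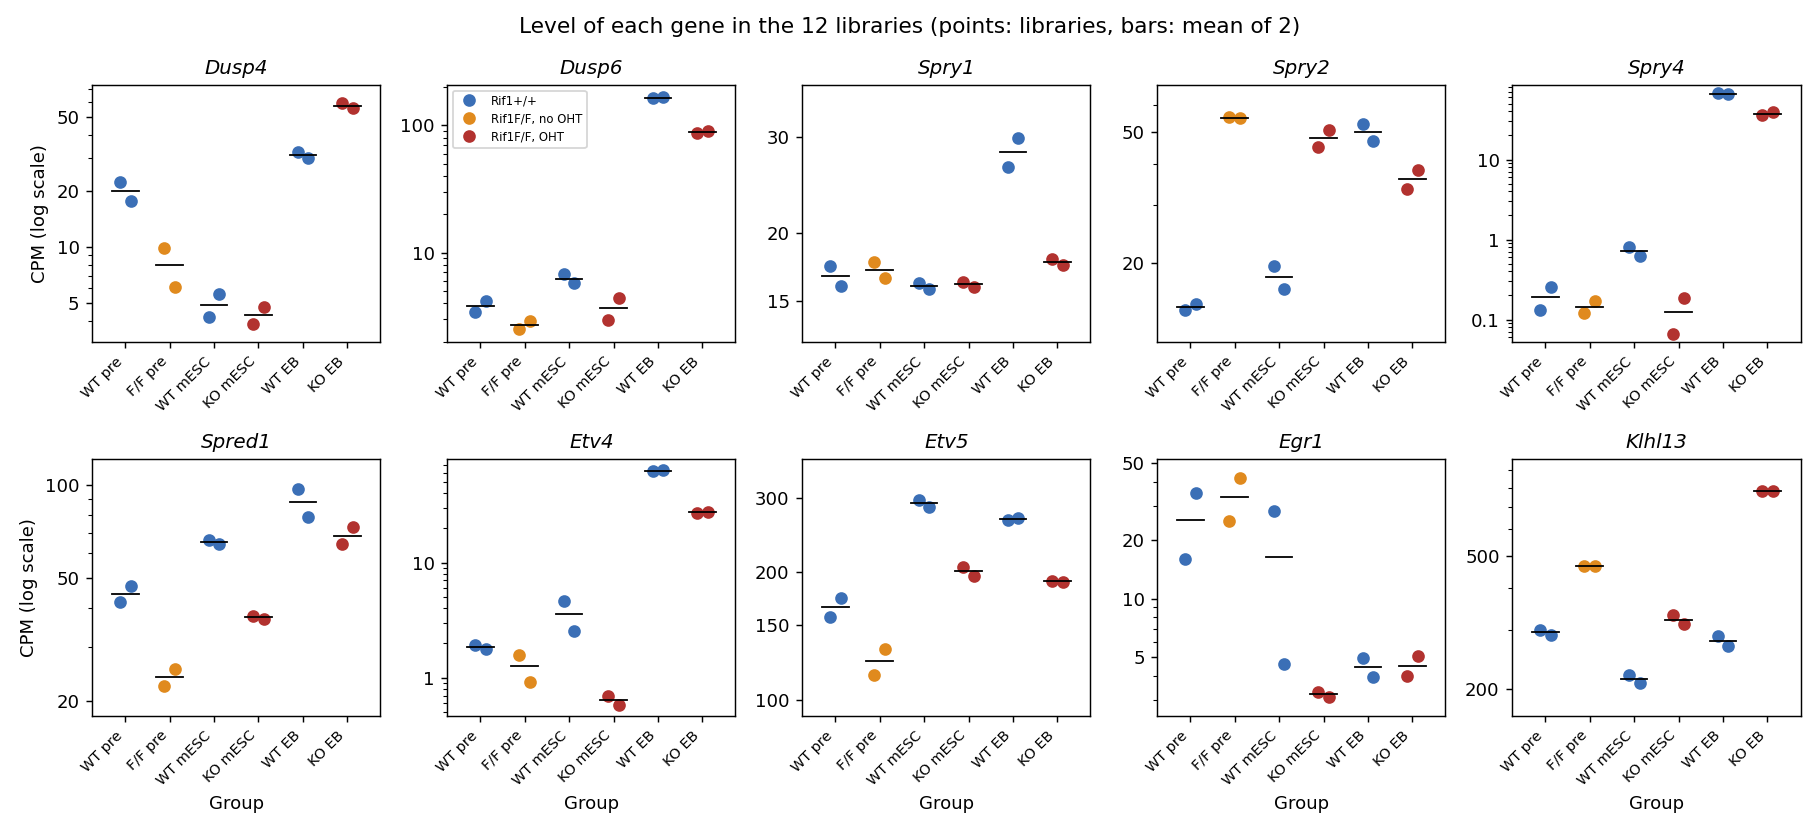
CPM on a log axis of the 10 genes in the 6 groups. Points are libraries and bars are the mean of 2 libraries, and each panel has its own range. Dusp6, Spry4 and Etv4 sit under 7 CPM in all 8 mESC libraries and between 26.8 and 166 CPM in the 4 EB libraries, while Klhl13 is highest in the 2 KO EB libraries, at 779 CPM in each.

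Per kilobase of exon, Klhl13 was the most abundant of the 10 genes in 5 of the 6 groups, from 65.4 CPM per kb in WT EB to 183 in KO EB. In WT mESC after OHT, Etv5 was above it, at 70.9 against 50.1 CPM per kb. Etv5 came next in the other 5 groups, from 30.0 to 65.0 CPM per kb. In WT EB the mean levels of Klhl13 and Etv5 per kb lay within the spread of the Klhl13 libraries. Spry4 was the least abundant in the 4 mESC groups, at 0.0264 to 0.149 CPM per kb, and Egr1 in both EB groups, at 0.991 and 1.01. Dusp6 moved from between 0.860 and 1.99 CPM per kb in the mESC groups to 52.6 in WT EB and 28.2 in KO EB, where it ranked behind Klhl13 and Etv5.

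**Figure D2:**
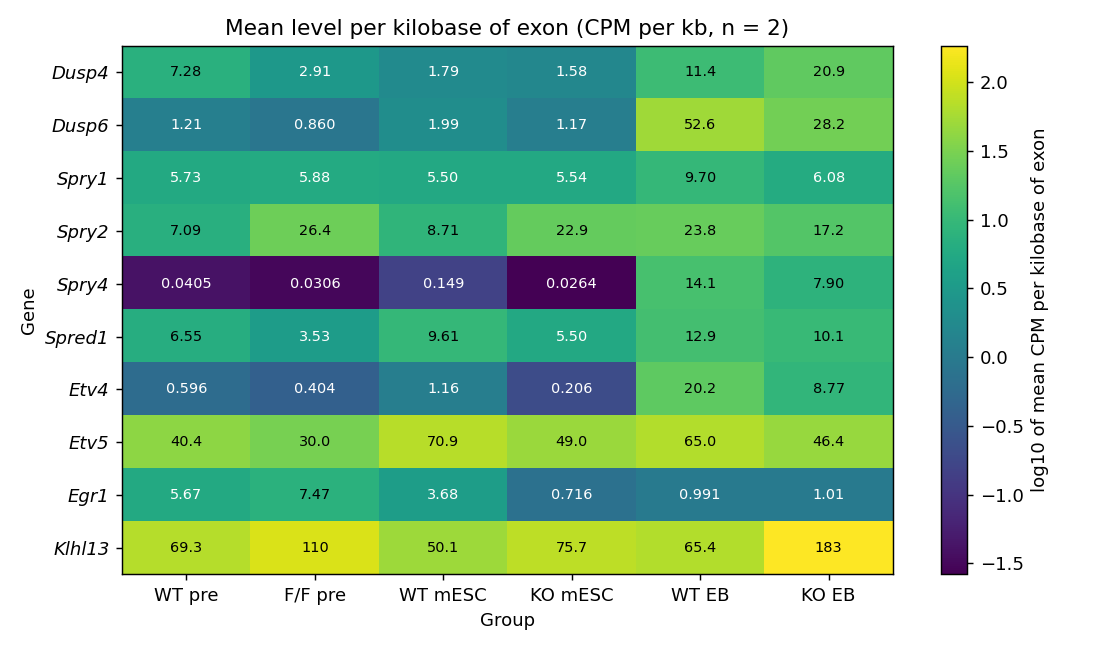
Mean CPM per kilobase of exon (n = 2 libraries) of each gene in each group, coloured by its log10. Klhl13 and Etv5 are the brightest rows in all mESC groups, and Dusp6, Spry4 and Etv4 brighten in the EB columns.

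Dusp6 encodes a cytoplasmic phosphatase specific for ERK and is among the most direct readouts of ERK activity. Its level was 3.43 and 4.13 CPM for WT lines before OHT, and 2.49 and 2.89 for F/F. After OHT the WT mESC were at 6.77 and 5.72, the KO mESC at 2.98 and 4.38. In EB, WT libraries reached 164 and 166 and KO libraries 86.2 and 90.7. WT and Rif1F/F libraries did not overlap in any of the 3 conditions. Against WT EB, KO EB had less Dusp6, with a log2 fold change of -0.90 ± 0.10 (SE, n = 2, edgeR adjusted p = 1.4e-06), and KO mESC against WT mESC gave -0.76 ± 0.15 (adjusted p = 5.6e-04). The difference before OHT was -0.49 ± 0.16 (adjusted p = 0.0278), and it lost its call without WT replicate 2 (-0.34, adjusted p = 0.22), without F/F replicate 3 (-0.38, adjusted p = 0.162) or when only these groups were fitted (adjusted p = 0.0858). The genotype difference did not differ detectably between EB and mESC (-0.14 ± 0.18, edgeR adjusted p = 0.607) or after OHT against before it (-0.28 ± 0.22, adjusted p = 0.47). From mESC to EB, Dusp6 rose by 4.72 ± 0.12 in WT (adjusted p = 3.2e-15) and by 4.58 ± 0.13 in KO (adjusted p = 1.7e-14). After OHT it was also higher than before it, in WT by 0.73 ± 0.14 (adjusted p = 4.6e-04). The rise in KO over F/F mESC, 0.45 ± 0.17 (adjusted p = 0.0385), was lost without F/F replicate 3 (0.35, adjusted p = 0.214) or KO replicate 4 (0.15, adjusted p = 0.598).

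Dusp4 encodes a nuclear MAP kinase phosphatase, and it went the other way from Dusp6 in EB. Before OHT, WT lines had 22.4 and 17.5 CPM, F/F lines 9.88 and 6.08. After OHT these became 4.21 and 5.59 (WT mESC) and 3.87 and 4.78 (KO mESC). The EB libraries gave 32.5 and 30.0 for WT, 59.2 and 55.4 for KO. It was thus low in F/F against WT before OHT, overlapping with it after OHT, and high in KO EB. The log2 fold change was -1.32 ± 0.18 before OHT (edgeR adjusted p = 1.5e-05), -0.17 ± 0.21 in mESC after OHT (adjusted p = 0.557) and 0.88 ± 0.16 in EB (adjusted p = 2.8e-04). The change of the genotype difference was 1.05 ± 0.26 from mESC after OHT to EB (adjusted p = 0.00673) and 2.20 ± 0.24 from before OHT to EB (adjusted p = 2.3e-06). Within WT lines Dusp4 fell from before to after OHT by 2.03 on the log2 scale (SE 0.18, edgeR adjusted p = 4.4e-07), the opposite direction to Dusp6. It then rose into EB by 2.68 ± 0.18 in WT (adjusted p = 6.5e-10) and by 3.73 ± 0.19 in KO (adjusted p = 2.3e-11).

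Sprouty proteins block receptor signalling towards RAS and RAF, and the 3 Sprouty genes had 3 different patterns. Spry4 was nearly silent in mESC and rose strongly into EB. The WT libraries had 5 and 9 counts before OHT, 49 and 32 as mESC after it and 2260 and 2658 as EB. The Rif1F/F libraries had 5 and 7, then 2 and 6, and 1345 and 1143 in the same order. As CPM, the WT libraries were at 0.132 and 0.253, 0.803 and 0.617, and 68.5 and 65.2, and the Rif1F/F libraries at 0.122 and 0.169, 0.0662 and 0.185, and 35.9 and 39.2. Between KO and WT EB, Spry4 had a log2 fold change of -0.83 ± 0.11 (edgeR adjusted p = 7.3e-06), with no overlap of libraries. In mESC after OHT the summed 8 counts of KO against 81 of WT gave a ratio of 0.178 after library size (95% exact interval 0.0743 to 0.367, which covers counting error only). The fitted value there was -2.46 ± 0.40 (edgeR adjusted p = 1.2e-04). Before OHT, 12 counts in F/F and 14 in WT gave a ratio of 0.765 with an interval of 0.323 to 1.78, so a difference was not detectable at this depth. The rise from mESC to EB was 92.9-fold in WT (counting interval 74.6 to 117) and 293-fold in KO (148 to 679).

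The genotype difference of Spry4 was smaller in EB than in mESC, with a change of 1.63 ± 0.44 (edgeR adjusted p = 0.0102). That call was lost without KO mESC replicate 3, the library with 2 counts (1.10, adjusted p = 0.124). In WT lines Spry4 was higher after OHT than before by 1.89 ± 0.34 (adjusted p = 2.7e-04). In Rif1F/F lines the same step gave -0.19 ± 0.59 (adjusted p = 0.833), and the difference of the 2 steps, -2.08 ± 0.70, missed the threshold (adjusted p = 0.0757).

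Rif1F/F mESC had more Spry2 than WT mESC, and KO embryoid bodies had less than WT ones. Its level was 14.5 and 15.1 CPM for WT lines before OHT, and 55.3 and 54.9 for F/F. After OHT the WT mESC were at 19.6 and 16.8, the KO mESC at 44.8 and 50.6. In EB, WT libraries reached 52.6 and 46.9 and KO libraries 33.6 and 38.1. All 4 Rif1F/F mESC libraries were above all 4 WT mESC libraries, and both KO EB libraries were below both WT EB libraries. The log2 fold change was 1.90 ± 0.10 before OHT (edgeR adjusted p = 2.3e-10), 1.39 ± 0.10 in mESC after OHT (adjusted p = 9.1e-09) and -0.47 ± 0.09 in EB (adjusted p = 7.0e-04). The change of the genotype difference from mESC to EB, -1.87 ± 0.14 (adjusted p = 4.7e-08) passed the threshold. From mESC to EB, Spry2 rose in WT by 1.45 ± 0.10 (adjusted p = 5.8e-10) and fell in KO by 0.41 on the log2 scale (SE 0.10, edgeR adjusted p = 0.0012). Between pre-deletion and OHT-treated mESC the WT difference was 0.30 ± 0.10 (adjusted p = 0.0215), a call lost without WT mESC replicate 1 (0.20, adjusted p = 0.177) or WT pre-deletion replicate 1 (0.27, adjusted p = 0.111).

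Spry1 was flat across mESC and differed in EB. Its 8 mESC libraries lay between 15.8 and 17.7 CPM, in both genotypes and with and without OHT. In EB it was at 26.4 and 29.9 CPM in WT and at 17.9 and 17.4 in KO, so that both WT EB libraries stood above all others. The genotype difference was -0.67 ± 0.10 in EB (edgeR adjusted p = 2.4e-05), 0.01 ± 0.10 in mESC after OHT (adjusted p = 0.95) and 0.04 ± 0.10 before OHT (adjusted p = 0.803). Its change from mESC to EB was -0.68 ± 0.14 (adjusted p = 0.00128). The rise into EB was 0.82 ± 0.09 in WT (adjusted p = 6.6e-07) against 0.14 ± 0.10 in KO (adjusted p = 0.247).

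Spred1 encodes a membrane protein that brings the RAS inhibitor neurofibromin to RAS. Before OHT, WT lines had 41.9 and 46.9 CPM, F/F lines 22.4 and 25.4. After OHT these became 66.2 and 64.2 (WT mESC) and 37.7 and 36.9 (KO mESC). The EB libraries gave 96.9 and 78.7 for WT, 64.1 and 72.8 for KO. Libraries of the genotypes did not overlap in any condition. The log2 fold change was -0.89 ± 0.10 before OHT (edgeR adjusted p = 2.8e-06), -0.80 ± 0.10 in mESC after OHT (adjusted p = 7.4e-06) and -0.36 ± 0.10 in EB (adjusted p = 0.00677). The EB call was lost without WT EB replicate 1 (-0.19, adjusted p = 0.191) or KO EB replicate 3 (-0.27, adjusted p = 0.108). Spred1 rose into EB by 0.43 ± 0.10 in WT (adjusted p = 8.7e-04), which was lost without WT EB replicate 1 (0.24, adjusted p = 0.0638), and by 0.87 ± 0.10 in KO (adjusted p = 8.1e-07). It was also higher after OHT than before in both genotypes, by 0.55 ± 0.10 in WT (adjusted p = 2.1e-04) and 0.64 ± 0.10 in Rif1F/F lines (adjusted p = 1.1e-04).

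**Figure D3:**
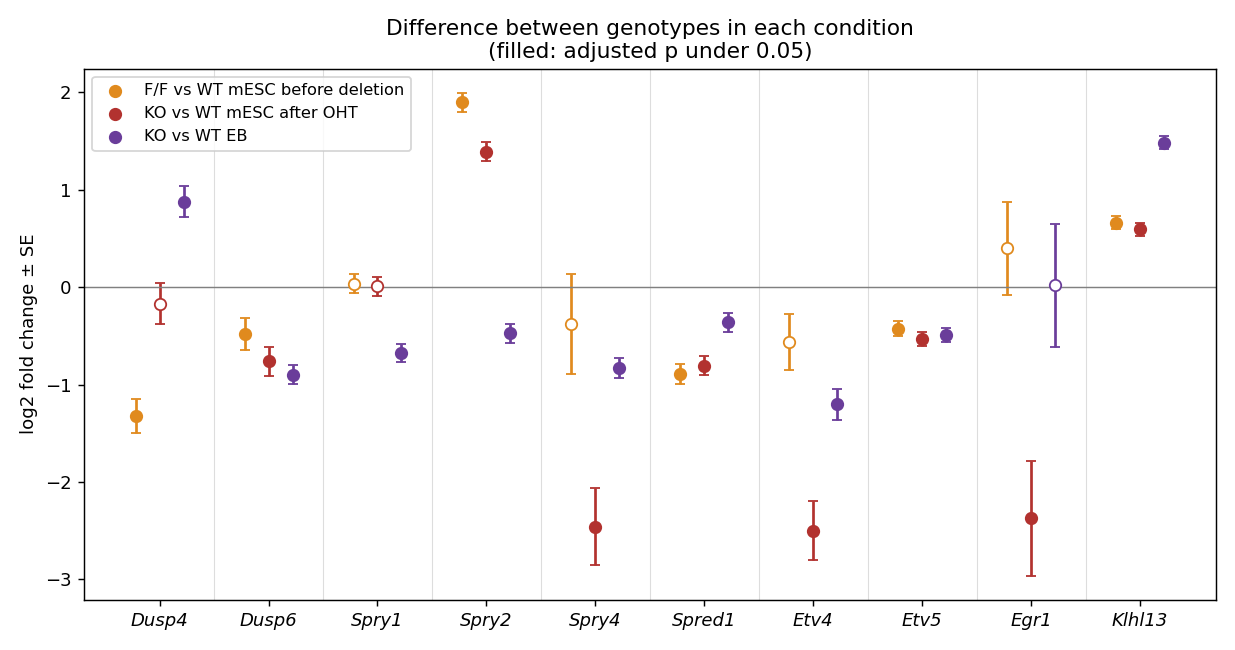
Log2 fold change ± SE of Rif1F/F over WT lines for each gene before OHT, in mESC after OHT and in EB (n = 2 libraries per group, filled points at adjusted p under 0.05). Spry2 and Dusp4 have filled points on both sides of 0. Dusp6, Spred1 and Etv5 are filled and below 0 in all 3, and Klhl13 is filled and above 0 in all 3 and highest in EB at 1.49. Spry4 and Etv4 are also below 0 in all 3, with open points before OHT.

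Etv4 and Etv5 are ETS-family transcription factor genes that respond to FGF and ERK signalling. For Etv4 the WT libraries had 1.93 and 1.77 CPM before OHT, 4.62 and 2.56 as mESC after it and 61.8 and 63.4 as EB. The Rif1F/F libraries had 1.59 and 0.916, then 0.695 and 0.586, and 26.8 and 27.7 in the same order. KO mESC had the lowest levels and WT EB the highest, with no overlap between genotypes. The log2 fold change was -2.50 ± 0.31 in mESC after OHT (edgeR adjusted p = 6.6e-06) and -1.20 ± 0.16 in EB (adjusted p = 1.3e-05). Before OHT it was -0.56 ± 0.29 (adjusted p = 0.141), which passed the threshold without F/F replicate 3 (-1.01, adjusted p = 0.0407) or with no filter on low counts (adjusted p = 0.0281).

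The genotype difference of Etv4 was larger after OHT than before it, by -1.94 ± 0.44 (edgeR adjusted p = 0.0126). That call was lost without F/F replicate 3 (-1.50, adjusted p = 0.0703) or KO mESC replicate 4 (-1.82, adjusted p = 0.0692). Over the same step Etv4 rose in WT by 0.97 ± 0.24 (adjusted p = 0.00278), lost without WT mESC replicate 1 (0.49, adjusted p = 0.0714). In Rif1F/F lines it fell by 0.97 on the log2 scale (SE 0.37, edgeR adjusted p = 0.0452), lost without F/F replicate 3 (-0.52, adjusted p = 0.406), KO replicate 3 (-1.09, adjusted p = 0.0991) or KO replicate 4 (-0.84, adjusted p = 0.198). From mESC to EB, Etv4 rose by 4.11 ± 0.19 in WT (adjusted p = 3.4e-12) and 5.41 ± 0.26 in KO (adjusted p = 7.8e-12).

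Etv5 was more abundant than Etv4 per kilobase of exon in every group and did not share its rise into EB. Its level was 157 and 174 CPM for WT lines before OHT, and 115 and 132 for F/F. After OHT the WT mESC were at 296 and 286, the KO mESC at 206 and 196. In EB, WT libraries reached 266 and 268 and KO libraries 190.3 and 190.1. WT libraries were above Rif1F/F libraries in every condition. The log2 fold changes were close to each other: -0.43 ± 0.07 before OHT (edgeR adjusted p = 2.0e-04), -0.53 ± 0.07 in mESC after OHT (adjusted p = 2.2e-05) and -0.49 ± 0.07 in EB (adjusted p = 4.2e-05). The genotype difference changed by -0.11 ± 0.10 after OHT (adjusted p = 0.552) and by 0.05 ± 0.10 from mESC to EB (adjusted p = 0.778). From mESC to EB the difference was -0.12 ± 0.07 in WT (adjusted p = 0.145) and -0.08 ± 0.07 in KO (adjusted p = 0.371). From before OHT to after it, Etv5 rose by 0.81 ± 0.07 in WT (adjusted p = 4.7e-07) and 0.70 ± 0.07 in Rif1F/F lines (adjusted p = 1.8e-06).

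Egr1 is an immediate-early gene, switched on within minutes of ERK activation, and its replicates spread most. Before OHT, WT lines had 16.1 and 34.8 CPM, F/F lines 25.0 and 42.0. After OHT these became 28.3 and 4.63 (WT mESC) and 3.31 and 3.11 (KO mESC). The EB libraries gave 4.94 and 3.95 for WT, 3.98 and 5.05 for KO. The higher WT mESC library was 6.13-fold above the lower, against at most 2.80-fold within any other pair of libraries of the 10 genes. The difference between KO and WT mESC, -2.37 ± 0.59 (edgeR adjusted p = 0.00424), rested on that library and was -0.51 without WT mESC replicate 1 (adjusted p = 0.355). In the same way Egr1 in WT EB was below WT mESC by -1.91 ± 0.55 (adjusted p = 0.00612), a value of -0.10 without WT mESC replicate 1 (adjusted p = 0.83). That call was also lost without WT EB replicate 2 (-1.78, adjusted p = 0.0539). EB genotypes did not differ detectably (0.02 ± 0.63, adjusted p = 0.985).

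Egr1 fell from F/F mESC before OHT to KO mESC after it by 3.38 on the log2 scale (SE 0.59, edgeR adjusted p = 2.2e-04), with no overlap. In WT lines the same step gave -0.61 ± 0.48 (adjusted p = 0.306), and -2.44 without WT mESC replicate 1 (adjusted p = 2.1e-05). The other immediate-early genes named here were chosen after their values were seen. Fos was at 76.8 and 24.5 CPM in the 2 WT mESC libraries, 14.6 and 14.4 in KO mESC and 80.3 to 126 in the 4 pre-deletion libraries. Egr2 was at 2.75 and 0.347 CPM in the WT mESC libraries and at most 0.555 in KO mESC. Junb, by contrast, was lower in WT mESC replicate 1 than in replicate 2, at 4.08 and 8.02 CPM.

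**Figure D4:**
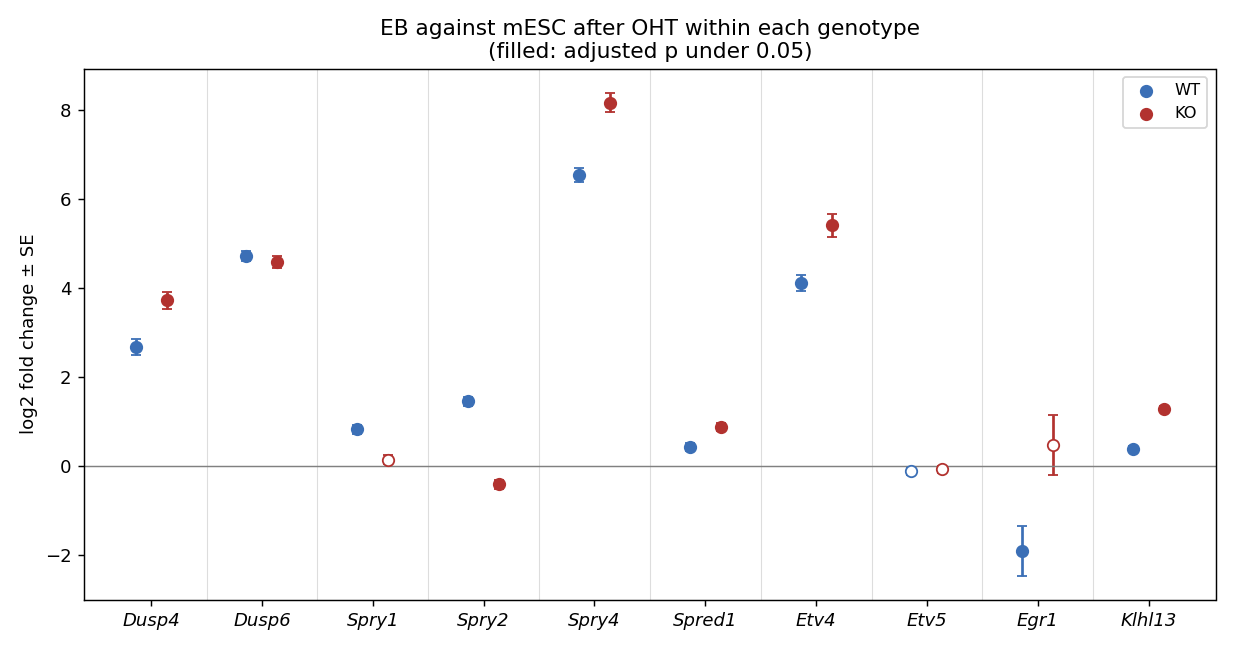
Log2 fold change ± SE of EB over mESC after OHT for each gene in WT and in KO lines (n = 2 libraries per group, filled points at adjusted p under 0.05). Dusp4, Dusp6, Spry4 and Etv4 lie above 2 in both genotypes, Etv5 lies near 0 in both, and Spry2 is above 0 in WT and below 0 in KO.

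Over the whole step from mESC to EB, 8 of the 10 genes rose and 1 fell in WT (32.5% of all tested genes rose and 29.8% fell), and 6 rose and 1 fell in KO (31.4% and 27.6% of all). The gene that fell was Egr1 in WT and Spry2 in KO. The genotype difference itself changed between mESC and EB for 8 of the 10 genes, 6 upward and 2 downward, where 14.8% of all genes changed upward and 13.7% downward. Only 3 of those 6 upward calls passed without KO mESC replicate 3 or without KO mESC replicate 4. Spred1 (0.45 ± 0.14, edgeR adjusted p = 0.0224) and Etv4 (1.30 ± 0.36, adjusted p = 0.0129) were among those lost without KO mESC replicate 4 (0.43 with adjusted p = 0.078, and 1.18 with adjusted p = 0.0894). The Spred1 call was lost under 4 of 8 omissions of 1 library, that of Etv4 under 2 and that of Egr1 under 7. From before to after OHT, 6 genes rose and 2 fell in WT (24.9% and 24.2% of all genes) and 3 rose and 4 fell in Rif1F/F lines (22.1% and 21.5%). The count of falls in Rif1F/F lines was 2 without F/F replicate 3. The genotype difference changed over that step for 4 genes, Dusp4 upward and Spry2, Etv4 and Egr1 downward (4.07% of all genes upward and 3.79% downward). These calls were lost under 3 of 8 omissions of 1 library for Dusp4, 6 for Spry2, 2 for Etv4 and 5 for Egr1, and with only the groups compared in the fit 0 upward and 1 downward were left. The Egr1 value was -0.92 without WT mESC replicate 1 (edgeR adjusted p = 0.278). From before OHT to EB it changed for 5 genes, upward for Dusp4, Spred1 and Klhl13 and downward for Spry1 and Spry2 (15.5% and 15.7% of all genes).

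Klhl13 was higher in Rif1F/F than in WT lines in every condition, and most so in EB. The WT libraries had 300.3 and 289 CPM before OHT, 219 and 207 as mESC after it and 288 and 269 as EB. The Rif1F/F libraries had 467 and 465, then 332 and 311, and 779.2 and 779.4 in the same order. Both KO EB libraries stood far above the other 10. The log2 fold change was 0.66 ± 0.06 before OHT (edgeR adjusted p = 4.3e-07), 0.59 ± 0.06 in mESC after OHT (adjusted p = 1.8e-06) and 1.49 ± 0.07 in EB (adjusted p = 1.7e-11). The difference before OHT and that after it were not distinguishable (-0.07 ± 0.09, adjusted p = 0.684). From mESC to EB the genotype difference grew by 0.89 ± 0.09 (adjusted p = 2.1e-06), and from before OHT to EB by 0.82 ± 0.09 (adjusted p = 2.8e-06). Klhl13 rose into EB by 1.28 ± 0.06 in KO (adjusted p = 1.7e-11) and by 0.38 ± 0.06 in WT (adjusted p = 5.3e-05). After OHT it was lower than before in both genotypes, by a log2 fold change of -0.47 ± 0.06 in WT (adjusted p = 2.3e-05) and -0.54 ± 0.06 in Rif1F/F lines (adjusted p = 6.6e-06).

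Because Klhl13 is X-linked, its values were set beside those of the 679 tested X-linked genes. X-linked counts were 4.42% and 4.59% of autosomal counts in the WT EB libraries and 5.47% and 5.38% in KO EB. In the 8 mESC libraries they were 4.78% to 5.40%. The median log2 fold change of X-linked genes in KO against WT EB was 0.32, which is 0.34 above the autosomal median. Klhl13 exceeded that X-linked median by 1.17 and ranked 92 from the highest of the 679. Its share of all X-linked counts was 0.722% and 0.645% in WT EB and 1.62% and 1.65% in KO EB. In mESC after OHT and before OHT it ranked 119 and 45, where the X-linked median was 0.01 and -0.11. Klhl13 was thus higher in Rif1F/F mESC where the X-linked median was near or below 0. The genotype difference of X-linked genes also grew into EB, by a median of 0.36 from mESC after OHT and 0.42 from before OHT. Klhl13 ranked 158 and 232 of the 679 in these changes.

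**Figure D5:**
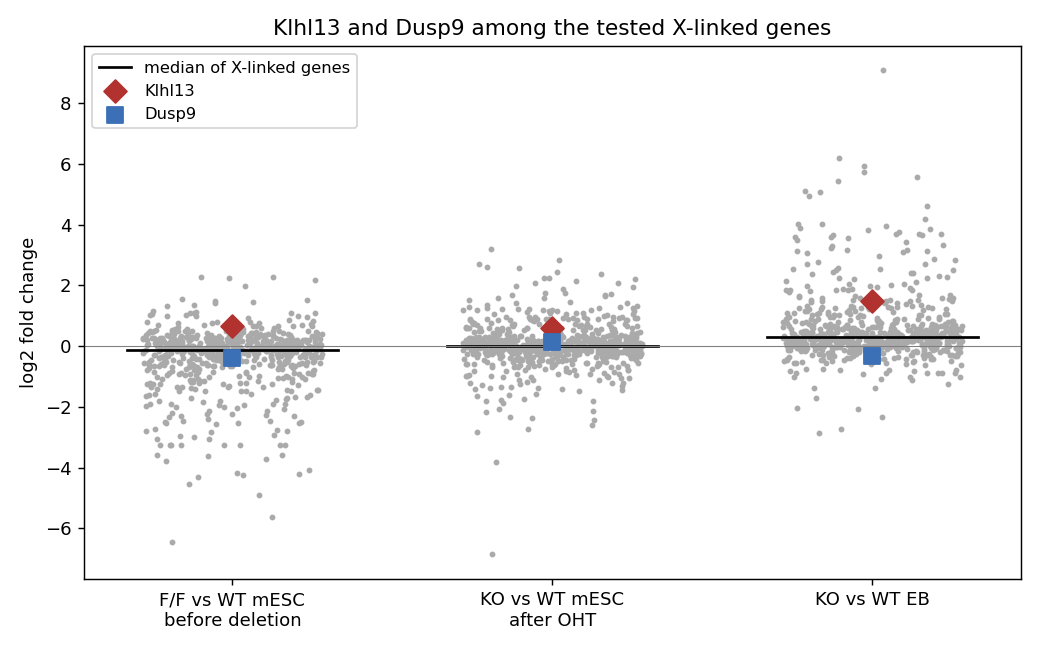
Log2 fold change of each of the 679 tested X-linked genes (grey points, spread sideways at random) in Rif1F/F over WT lines before OHT, in mESC after OHT and in EB, with their median as a black bar. Klhl13 (red diamond) is above the median in all 3, and Dusp9 (blue square) is below the median in EB.

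Dusp9, the other X-linked MAPK inhibitor and an ERK phosphatase gene, did not follow Klhl13. It was at 507 and 418 CPM for WT lines before OHT, and 342 and 366 for F/F. After OHT the WT mESC were at 343 and 411, the KO mESC at 426 and 405. In EB, WT libraries reached 409 and 552 and KO libraries 399 and 377. The genotypes overlapped in mESC after OHT and did not overlap in the other conditions. The log2 fold change in EB, -0.31 ± 0.12 (edgeR adjusted p = 0.0442), was lost without WT EB replicate 2 (-0.06, adjusted p = 0.725), KO EB replicate 3 (-0.35, adjusted p = 0.0943) or KO EB replicate 4 (-0.27, adjusted p = 0.21), with DESeq2 (adjusted p = 0.191) and with another scaling of libraries (adjusted p = 0.0548). Before OHT it was -0.39 ± 0.12 (edgeR adjusted p = 0.0151), lost without WT replicate 1 (-0.24, adjusted p = 0.208) or F/F replicate 3 (-0.33, adjusted p = 0.0963) and with DESeq2 (adjusted p = 0.0653). In KO against WT EB it ranked 614 of the 679 X-linked genes.

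The rest of the pathway moved in both directions, and the counts in KO against WT EB stand beside 20.7% higher and 19.7% lower over all tested genes. Of ligand genes, 6 of 13 tested were higher and 3 lower. Fgf4, the main autocrine ligand of mESC, was at -0.62 ± 0.07 (edgeR adjusted p = 9.1e-07). Before OHT, Fgf4 was higher in F/F than in WT, by 0.47 ± 0.065 (adjusted p = 2.2e-05). In mESC after OHT it was not called (0.12 ± 0.065, adjusted p = 0.156). Fgf5, a marker of the formative epiblast, was at -0.71 ± 0.10 in KO against WT EB (adjusted p = 1.7e-05). Of 15 receptor genes, 8 were higher and 2 lower. Kit, the stem cell factor receptor gene, was higher by 1.16 ± 0.07 (adjusted p = 4.6e-10), and Klb, a co-receptor gene for endocrine FGFs, was lower by -4.05 ± 0.14 (adjusted p = 1.0e-12). Klb was also lower in F/F than in WT before OHT, by -3.38 ± 0.10 (adjusted p = 2.1e-13). Of 16 adaptor and RAS genes, 2 were higher and 4 lower, with Grb2 at 0.74 ± 0.07 (adjusted p = 3.9e-07). Of 16 genes of the kinase cascade, 5 were higher and 3 lower, with the scaffold gene Ksr1 at 0.84 ± 0.09 (adjusted p = 6.3e-07) and the ERK-activated kinase gene Rps6ka1 at -0.60 ± 0.06 (adjusted p = 1.0e-06).

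Beyond the 10 genes, 17 other feedback inhibitor genes were tested, of which 2 were higher and 7 lower in KO EB, beside the same 20.7% and 19.7% over all genes. Spred3 was lower by -1.28 ± 0.20 (edgeR adjusted p = 5.5e-05), and the receptor inhibitor gene Lrig1 was higher by 0.56 ± 0.07 (adjusted p = 5.6e-06). Of 27 other ERK target genes, 5 were higher and 8 lower, with the growth regulator gene Myc at -1.26 ± 0.18 (adjusted p = 2.9e-05). Among 9 genes for the partners and relatives of KLHL13 in its ubiquitin ligase complex, 1 was lower and none higher. The lower one was Klhl9, the paired adaptor gene of Klhl13, at -0.35 ± 0.09 (adjusted p = 0.00315). In mESC Klhl9 was higher in Rif1F/F than in WT lines. The difference was 0.69 ± 0.09 before OHT (edgeR adjusted p = 7.8e-06) and 0.25 ± 0.08 after it (adjusted p = 0.0275). List medians in KO against WT EB ran from -0.13 for the other feedback inhibitors to 0.26 for the receptors, against -0.02 over all genes.

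In KO against WT mESC, where 19.8% of all genes were higher and 18.6% lower, 7 of 17 other feedback inhibitors were lower and 2 higher, and 8 of 27 other ERK targets lower and 3 higher. The phosphatase gene Dusp14 was lower by -1.02 ± 0.14 (edgeR adjusted p = 1.9e-05), the FGF inhibitor gene Il17rd by -0.46 ± 0.07 (adjusted p = 5.8e-05) and the cyclin gene Ccnd1 by -0.96 ± 0.07 (adjusted p = 2.6e-08). For Ccnd1 the difference before OHT was larger, -1.87 ± 0.08 (adjusted p = 6.9e-12). Elk3, another ERK target gene, was higher by 0.72 ± 0.11 after OHT (adjusted p = 4.4e-05) and by 0.64 ± 0.11 before it (adjusted p = 2.0e-04). In F/F against WT before OHT, 7 of 17 other feedback inhibitors were also lower and 2 higher, and 4 of 27 other ERK targets lower and 4 higher. Over all genes 17.5% were lower and 19.9% higher there. After OHT, 3 of the ligands were higher and 4 lower, and of the receptors 5 and 5, of the adaptors 0 and 4, of the kinases 6 and 4, and of the KLHL13 partners 1 and 2. From WT mESC to WT EB, 10 of the 17 other feedback inhibitors rose and 5 fell, and 11 of the 27 other targets rose and 8 fell, beside 32.5% and 29.8% of all genes. Fgf5 rose most among the ligands named, by 8.23 ± 0.17 (adjusted p = 2.4e-16).

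Markers of cell state differed between the genotypes beside the feedback genes, in EB and in mESC. Formative epiblast markers summed to 2936 and 2942 CPM in WT EB and 1556 and 1572 in KO EB, and all 8 were lower in KO. In mESC after OHT they summed to 509 and 533 CPM in WT and 382 and 383 in KO, with 5 of 8 lower and 1 higher. Before OHT the sums were 461 to 480 CPM in WT and 364 to 367 in F/F, with 4 lower and 1 higher. Pluripotency markers summed to 1354 and 1384 CPM in WT EB and 1492 and 1582 in KO EB, with 5 of 8 higher. Their range was 5342 to 5456 CPM in WT and 5643 to 6007 in KO mESC after OHT, with 4 of 8 higher and 1 lower. Before OHT it was 4311 to 4550 in WT and 5464 to 5950 in F/F, with 6 higher and 1 lower. Mean Prdm14 went the other way from these sums. It was 188 CPM in WT and 104 in KO mESC after OHT, and 148 in WT and 75.2 in F/F before it. Primitive endoderm markers summed to 188 and 193 CPM in WT EB and 274.6 and 275 in KO EB, with 2 of 8 higher and 2 lower. Most of that sum was Sparc, a matrix protein gene, at a mean of 142 CPM in WT EB and 236 in KO EB, while Lama1, a laminin gene, was at 29.4 and 19.1 and Gata4 at 4.12 and 2.57. Mean Sparc was also higher in Rif1F/F mESC, at 478 CPM in WT and 651 in F/F before OHT, and 379 in WT and 578 in KO after it. Trophoblast markers summed to 38.9 and 42.3 CPM against 71.8 and 74.7 in EB, with 2 of 8 higher: Tfap2c, at a mean of 16.3 in WT and 44.0 in KO, and Gata3, at 0.351 and 5.13. Gata3 already stood apart in mESC, at a mean of 0.0958 CPM in WT and 7.54 in F/F before OHT, and 0.218 in WT and 8.7 in KO after it. Mean Tfap2c was 95 CPM in WT and 103 in F/F before OHT. These single markers were named after their values were seen. Mesendoderm markers summed to 25.4 to 26.7 CPM in WT and 13.4 to 13.7 in KO mESC after OHT, to 29.2 to 30.7 in WT and 14.3 to 15.4 in F/F before it, and to 22.2 to 24.8 over the 4 EB libraries, with 3 of 6 tested markers lower after OHT, 4 lower before it and 0 called in EB. The part of these markers' cells in the differences of the feedback genes was not tested. In these bulk libraries fewer cells of a type and less RNA per cell cannot be told apart.

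The pattern of Dusp6 over the 12 libraries was shared closely by Spry4 (Pearson r of log2 CPM 0.995) and Etv4 (0.968), less by Spred1 (0.81), Dusp4 (0.78) and Spry1 (0.76), and little by Etv5 (0.47) and Spry2 (0.27), while Egr1 ran the other way (-0.52). Klhl13 had r = 0.29 with Dusp6 and -0.54 with Etv5. Among 11085 other genes with a mean log2 CPM of at least 2, those most like Dusp6 were Med14, Qser1, Nphs1, Dnmt3b and Foxh1, at 0.994 to 0.995. Those most like Klhl13 were Tk2, Baiap2l1, Ethe1, Utrn and Dnajb14, at 0.94 to 0.95, none of them X-linked. Those most like Egr1 were Topbp1, Rsrc2, Rbm39, Rbm25 and Mcm8, at 0.93 to 0.96. All of these describe the same 12 libraries, which share conditions and lines, and carry no test.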

How the data were processed

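RNA-seq of 12 libraries from 4 female mESC lines was analysed, 2 lines per genotype and 1 library per line and condition. The p-values therefore rest on the spread between lines within groups, pooled over the 6 groups and drawn toward the spread of other genes. They do not use the spread of the 2 compared groups alone. A deposited table holds the authors' raw read counts, 24391 gene symbols with whole numbers and no normalization. Per the submitters' processing notes, BWA, HTSeq and DESeq2 and the build mm9 were used, with no version or role given. A strand setting was not given in the sources used here, and of the 10 genes Dusp6 alone overlaps another RefSeq gene. Total counts per library ranged from 28600870 to 64808897, and no 2 libraries shared more than 0.666% of their counts exactly over genes.

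The test was that of edgeR 4.0.16, run in R 4.3.3 (quasi-likelihood F test, 1 model of 6 groups, TMM, filterByExpr at a minimum count of 10, Benjamini-Hochberg over 17115 genes, threshold 0.05). The common dispersion had a square root of 0.0717. SE is the absolute log2 fold change divided by the square root of F. Levels per kilobase used the exon length of a GRCm38 annotation matched by symbol, and the promoter windows carry GRCm38.p6 coordinates, a build other than mm9. The test was tried on simulated counts with known changes. Alternatives were DESeq2 1.42.0, RLE scaling, no filter, only the groups compared, leaving out each library, and the line as a block.

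The 10 genes, the 7 pathway lists, the 7 marker lists and the tests were chosen with earlier results of these data known. The 10 genes and Dusp9 are named throughout, and from each pathway list the 2 genes with the smallest adjusted p in KO against WT EB, in WT EB against WT mESC and in KO against WT mESC could be named. The pairing by line comes from the labels, since each line recurs in every condition. Over 11086 genes the deviations of the same line from its group means correlated at -0.168 (WT, before against after OHT), 0.226 (WT, after OHT against EB), -0.147 (WT, before OHT against EB), 0.106 (Rif1F/F, before against after OHT), 7.08e-04 (Rif1F/F, after OHT against EB) and -0.00833 (Rif1F/F, before OHT against EB).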

Additional observations from a re-analysis of the deposited data

Results flagged for a closer look

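The genotype difference changed between conditions, by the test of the difference itself, in 17 cases among the 10 genes. Each value is the change of the log2 fold change of Rif1F/F over WT lines (2 libraries per group, edgeR quasi-likelihood F test, Benjamini-Hochberg adjustment over 17115 genes).

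From before OHT to after it, Dusp4 changed by 1.15 (adjusted p = 0.0174), and Dusp4 fell more in WT than in Rif1F/F lines over that step. It was 0.84 to 0.99 and lost its call without WT pre-deletion replicate 1, F/F replicate 4 or KO mESC replicate 4. Spry2 changed by -0.51 (adjusted p = 0.0331), a call lost under 6 of its 8 omissions of 1 library. Etv4 changed by -1.94 (adjusted p = 0.0126). Egr1 changed by -2.77 (adjusted p = 0.0343), and by -0.92 without WT mESC replicate 1 (adjusted p = 0.278).

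From mESC after OHT to EB, the values were 1.05 for Dusp4 (adjusted p = 0.00673), -0.68 for Spry1 (adjusted p = 0.00128) and -1.87 for Spry2 (adjusted p = 4.7e-08). Klhl13 changed by 0.89 (adjusted p = 2.1e-06), and X-linked genes had a median change of 0.36 in the same test. Spry4 changed by 1.63 (adjusted p = 0.0102), Spred1 by 0.45 (adjusted p = 0.0224) and Etv4 by 1.30 (adjusted p = 0.0129), toward a smaller genotype difference in EB. The change of Egr1 was 2.39 (adjusted p = 0.0485), and 0.54 without WT mESC replicate 1 (adjusted p = 0.489), and its call was lost under 7 of the 8 omissions of 1 library.

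From before OHT to EB, Dusp4 changed by 2.20 (adjusted p = 2.3e-06) and Spry2 by -2.37 (adjusted p = 1.5e-09), each turning from one direction to the other. Spry1 changed by -0.71 (adjusted p = 7.0e-04), Spred1 by 0.53 (adjusted p = 0.00785) and Klhl13 by 0.82 (adjusted p = 2.8e-06), where X-linked genes had a median change of 0.42. Spred1 lost this call without KO EB replicate 4 (0.44, adjusted p = 0.0525).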

How the results depend on the processing

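Of 1018 values of the 10 genes under an alternative, 923 kept direction and side of the threshold, 57 lost their call, 13 gained one and 25 changed sign, none of them a called value; of 1428 counts from the pathway lists, 208 moved by over 1.5 times. Fitting only the groups compared gave 2 lower genes in place of 1 in KO EB against KO mESC, 0 higher and 1 lower in place of 1 and 3 in the genotype by OHT test, and 4 lower in place of 2 in the EB against pre-deletion test, and turned Spry1 in the genotype by OHT test to 0.0049. Leaving out 1 library gave 0 to 1 lower genes in WT EB against WT mESC, 2 to 4 lower in KO mESC against F/F, 0 to 1 higher and 1 to 4 lower in the genotype by OHT test, and 3 to 6 higher in the test of mESC against EB. Leave-one-out values that turned in sign ran, in KO against WT mESC, from -0.35 to 0.041 for Dusp4 and from -0.008 to 0.045 for Spry1, and in EB from -0.15 to 0.20 for Egr1. Before OHT they ran from -0.016 to 0.10 for Spry1, -0.78 to 0.15 for Spry4 and -0.055 to 1.07 for Egr1. Over OHT they ran in WT from -0.11 to 0.0058 for Spry1 and -2.44 to 0.16 for Egr1, and in Rif1F/F lines from -1.10 to 0.34 for Spry4. In the genotype by OHT test they ran from -0.092 to 0.046 for Spry1 and -0.0048 to 0.18 for Spred1, in that of mESC against EB from -0.38 to 0.17 for Dusp6, and in that of EB against pre-deletion from -0.17 to 0.042 for Etv5, -1.04 to 0.073 for Egr1 and -0.12 to 0.31 for Dusp9. The cause of these moves was not tested. Over all genes, calls in KO against WT mESC were 6572, and 4125 without KO replicate 4; in the genotype by OHT test they were 1346, 2218 with no filter, 705 with only the groups compared and 510 to 2540 without 1 library.

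The replicate block by line left Klhl13 at 1.28 in KO EB against KO mESC and Etv4 at -1.92 in the genotype by OHT test, and it changed no call of the 10 genes in any of 70 values; the Dusp9 genotype by OHT value, 0.53 (adjusted p = 0.0584), became 0.54 (adjusted p = 0.0453). A block with the WT pre-deletion numbers crossed, chosen after seeing the data, gave 8723 calls over OHT in WT against 8184 with the numbers as labelled. With 2 libraries per group the counts of Spry4 in mESC, 2 to 49 per library, limit what can be told there.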
